A study of Homo sapiens with 4 samples.

Results

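The 7 genes described here are NEAT1 and MALAT1, a neighbouring pair of nuclear long non-coding RNAs, and 5 proteins of paraspeckles, SFPQ, NONO, PSPC1, RBM14 and TARDBP. They were taken by gene symbol from a table of 20804 genes, and all 7 were found and passed the filter on low values. They were measured in 4 RNA sequencing libraries of MDA-MB-231, an established human line of triple-negative breast cancer, a tumour type without oestrogen receptor, progesterone receptor and HER2. For 2 libraries the labels give the genotype miR-3662-KO, a loss of that microRNA (KO below), and 2 are of wild-type cells (WT). No other allele, treatment or time is named for either group. How the KO cells were obtained, whether they are 1 clone, and whether libraries of a group came from separate cultures is not stated, so p-values measure only the spread between these libraries, which may be technical. CRISPR interference and activation are named in the title and a sort by activity of the microRNA in the design text, so what KO stands for is uncertain. The members were chosen with the KO and WT values in view, so their differences are given as a description. They are among the genes that entered the test over all genes. How many of them passed is counted below, but nothing is read from these counts.

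Paraspeckles are bodies in the nucleus built on NEAT1. The NEAT1 gene makes a short, polyadenylated RNA and a long RNA from the same start, and only the long RNA can hold a paraspeckle together. SFPQ, NONO and PSPC1 form the DBHS family (Drosophila behaviour, human splicing) of RNA-binding proteins, which pair with one another and coat the long RNA. MALAT1 lies next to NEAT1 on the chromosome and gathers in nuclear speckles, a separate body that stores splicing factors. Paraspeckles are known to retain certain proteins and edited RNAs, and NEAT1 is known as a gene induced by stress.

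In GRCh38 (GENCODE 29), NEAT1 (gene identifier 283131) lies at chr11:65422774-65445540 and MALAT1 (378938) at chr11:65497688-65506516, both on the plus strand and 52.1 kb apart. The long transcript of NEAT1 has 22743 bases in 1 exon, and a short transcript with 2 exons has 3441 bases. The longest transcript of MALAT1 has 8708 bases in 1 exon. The long NEAT1 RNA and MALAT1 are known to end not in a poly(A) tail but in a triple helix, formed when a genome-encoded A-rich tract folds back on U-rich motifs. Their ends are shown because this is what the pair shares in sequence, and because it bears on how such RNAs enter a library. The capitals mark the stretches that both ends share, namely the U-rich TTTCTTTT and CTCAGGTTTTGCTTTT and the A-rich AAAAAGCAAAA, in sequences read from the GENCODE 29 transcripts.
NEAT1 long transcript, chr11:65445441-65445540, plus strand: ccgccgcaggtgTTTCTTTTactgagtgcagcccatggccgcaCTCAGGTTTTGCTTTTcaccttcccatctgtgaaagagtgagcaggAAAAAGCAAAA
MALAT1, chr11:65506017-65506116, plus strand: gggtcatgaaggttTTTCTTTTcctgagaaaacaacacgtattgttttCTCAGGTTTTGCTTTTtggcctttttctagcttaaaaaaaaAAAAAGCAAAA
A short NEAT1 transcript, chr11:65426474-65426513, plus strand, with the polyadenylation signal AATAAA in capitals: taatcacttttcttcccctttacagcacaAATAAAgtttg
The annotated long NEAT1 transcript stops with the A-rich tract, with 0 bases after it, while the MALAT1 transcript runs on for 353 bases. Of 13571 lncRNA genes searched on the sense strand of their longest transcript, 2 held CTCAGGTTTTGCTTTT within 60 bases before AAAAAGCAAAA. They were NEAT1 and MALAT1, whose ends had supplied the stretches, so this count describes the stretches only.

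The microRNA named in the labels, hsa-miR-3662, is encoded at chr6:134979355-134979378, minus strand (RefSeq, GRCh38.p14). MicroRNAs pair with target RNAs mainly through their seed, bases 2 to 8, shown in capitals.
hsa-miR-3662: gAAAAUGAugaguagugacugaug
A match to the whole seed reads TCATTTT in the target. The long NEAT1 transcript holds 4 such matches and the short transcript none, and MALAT1 holds none. The 4 matches are shown with 11 bases on each side, and all lie in the part of the exon that the short RNA does not cover.
NEAT1 base 6742, chr11:65429539-65429545: ctaattcctagTCATTTTtctattgattg
NEAT1 base 8131, chr11:65430928-65430934: gactatctgaaTCATTTTtaagtatacat
NEAT1 base 12671, chr11:65435468-65435474: tgttggtatggTCATTTTaaccatttttc
NEAT1 base 18933, chr11:65441730-65441736: cagttctgcttTCATTTTataatttattt
That is 0.176 matches per kb in the long NEAT1 RNA, against 0.192 per kb over 4630 lncRNA genes with a transcript of at least 1000 bases. Of 59 lncRNA genes with a transcript of at least 8000 bases, 86.4% hold at least 1 match. Among the proteins, the 3′ UTR of PSPC1 holds 2 matches, that of TARDBP 2, that of SFPQ 1, that of NONO 1 and that of RBM14 none. The matches of the DBHS proteins are shown for comparison.
SFPQ 3′ UTR, chr1:35183704-35183710, minus strand: aagtggaaaggTCATTTTgttgcatttcc
NONO 3′ UTR, chrX:71300839-71300845, plus strand: cttagagatttTCATTTTagtgtatcttt
PSPC1 3′ UTR, chr13:19702973-19702979, minus strand: aatgatgctcaTCATTTTgaatgttgaaa
PSPC1 3′ UTR, chr13:19702880-19702886, minus strand: caataaagaaaTCATTTTggataatttaa
A match of 7 letters is a description and not a shown target site.

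All levels are the authors' FPKM values, fragments per kilobase of transcript, scaled to the mapped total of each library. They are levels of RNA. Where a protein is said to rise or fall, the RNA of its gene is meant, and protein was not measured. Read depth is unknown, so how many reads stand behind a value cannot be given. The values summed to 528986 and 544650 in the KO libraries and to 504102 and 520527 in the WT libraries. The cells carried the mesenchymal markers VIM at 1120 to 1321 FPKM and CD44 at 104 to 114, ESR1 stood at 0.01 or less, and ERBB2 at 8.55 to 11.4 in the 4 libraries. Of the other markers of the line, AXL overlapped between the groups, CAV1 was higher in KO (443 and 450 FPKM in KO, 179 and 170 in WT), and MSN and KRT18 were lower. MSN was at 162 and 159 in KO and at 195 and 206 in WT, and KRT18 at 195 and 170 in KO and at 266 and 291 in WT. PTPRC, a marker of leukocytes, and CD3E, a marker of T cells among them, were at 0 in all 4. The 3 endothelial markers summed to 0.27 and 0.45 in KO and to 0.12 and 0.15 in WT, and 2 fibroblast markers to 0.37 and 0.29 in KO and to 1.12 and 1.47 in WT. CD68, the remaining leukocyte marker with a value and also a lysosomal protein of other cells, stood at 67.7 and 117 FPKM in KO and at 30.2 and 39.0 in WT. The part of these markers in the results was not tested.

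NEAT1 had the largest difference of the 7. Its level was 60.1 and 55.9 FPKM in the KO libraries, against 7.74 and 8.01 FPKM in the WT libraries. The KO values were close together, the WT values closer still, and the groups lay far apart. The means were 58.0 ± 2.98 FPKM in KO and 7.88 ± 0.191 FPKM in WT (SD, n = 2 each), a ratio of 7.36. The difference, KO minus WT on the log2(FPKM + 1) scale, was 2.73 ± 0.13 (SE). Of 11786 tested genes only 5 had a larger difference. In bulk RNA, more cells that make an RNA and more RNA per cell cannot be told apart. The table gives 1 value for the whole NEAT1 gene, so the short and the long RNA cannot be told apart either, and how their lengths entered the FPKM is not stated.

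MALAT1 moved the same way. It stood at 35.0 and 38.8 FPKM in KO, against 10.2 and 7.05 FPKM in WT. The WT libraries differed from each other by 0.48 on the log2(FPKM + 1) scale and the KO libraries by 0.14, and the groups did not overlap. The means were 36.9 ± 2.64 FPKM in KO and 8.64 ± 2.26 FPKM in WT (SD, n = 2 each), a ratio of 4.27 and a log2 difference of 1.99 ± 0.18 (SE). An antisense RNA, TALAM1, is annotated over MALAT1, and the strand setting of the counting is not given, so reads of the pair cannot be told apart. Within each library NEAT1 stood at 1.72 and 1.44 times the FPKM of MALAT1 in KO, and at 0.756 and 1.14 times in WT.

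**Figure D1:**
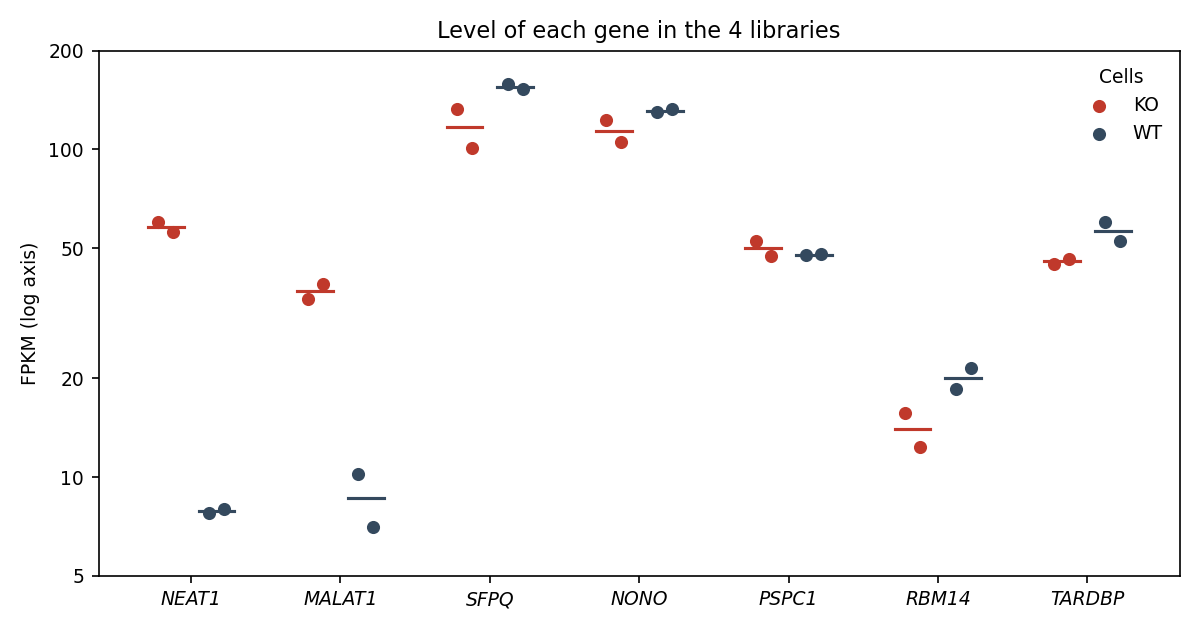
Level of the 7 genes in FPKM on a log axis, with KO libraries left (red) and WT libraries right (dark); points are single libraries and bars are group means (n = 2 each). NEAT1 and MALAT1 stand far higher in KO, SFPQ, NONO, RBM14 and TARDBP stand somewhat lower in KO, and PSPC1 overlaps.

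The genes of the proteins that coat NEAT1 did not follow it in their RNA. SFPQ (gene identifier 6421, chr1:35176378-35193148, minus strand), a DBHS protein that also acts in splicing and repression of transcription, is needed for paraspeckles to form. It was at 132.5 and 101 FPKM in KO, against 158 and 153 FPKM in WT. Both KO values lay below both WT values, but the KO libraries differed from each other about as much as the groups did. The log2 difference was -0.42 ± 0.14 (SE), a KO mean of 75.2% of the WT mean.

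NONO (4841, chrX:71283192-71301168, plus strand), the usual partner of SFPQ and likewise needed for assembly, was at 122.82 and 105.15 FPKM in KO. In WT it was at 130 and 133 FPKM. The groups did not overlap, and the difference of -0.21 ± 0.12 (SE, log2) was smaller than the gap of 0.22 between the KO libraries. PSPC1 (55269, chr13:19674752-19783019, minus strand), the protein after which paraspeckles were named and which they can form without, was at 52.4 and 47.4 FPKM in KO. In WT it was at 47.6 and 47.9 FPKM, inside the KO range, with a difference of 0.06 ± 0.12 (SE, log2). Scaled to an equal sum the PSPC1 difference was -0.006, so it has no stable direction.

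The sum of the 3 DBHS genes was 308 and 254 FPKM in KO and 335 and 334 FPKM in WT. NEAT1 was at 0.453 and 0.551 times the level of SFPQ in KO, against 0.0491 and 0.0523 times in WT. Set against NONO, it was at 0.489 and 0.531 times in KO and at 0.0597 and 0.0602 times in WT. Relative to SFPQ, PSPC1 stood at 0.395 and 0.468 in KO and at 0.301 and 0.313 in WT. These ratios use the per-length values within a library, so they are free of scaling between libraries, and in these 3 the KO libraries lay above the WT libraries. SFPQ relative to NONO went the other way, at 1.08 and 0.963 in KO and at 1.22 and 1.15 in WT.

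RBM14 (10432, chr11:66616582-66627347, plus strand), a coactivator with a prion-like domain that is needed for paraspeckle integrity, was at 15.7 and 12.4 FPKM in KO. In WT it was at 18.6 and 21.5 FPKM. The groups did not overlap, and the difference was -0.49 ± 0.16 (SE, log2). A read-through gene, RBM14-RBM4, covers RBM14 and stood at 4.18 and 4.30 FPKM in KO and at 4.14 and 5.85 FPKM in WT. How reads were split between them is not given, so the RBM14 values are uncertain. TARDBP (23435, chr1:11012344-11026420, plus strand) encodes TDP-43, an RNA-binding protein that in pluripotent cells favours the short NEAT1 RNA. It was at 44.6 and 46.4 FPKM in KO, against 60.2 and 52.6 FPKM in WT, without overlap, and the difference was -0.30 ± 0.12 (SE, log2).

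Of the 7 members, 2 had both KO values above both WT values, 4 had both below, and 1 overlapped. Over all tested genes 39.3% had KO above WT and 28.7% had KO below WT, so 68.0% did not overlap. NEAT1 and MALAT1, 2 of 7, passed an adjusted p of 0.05 in limma's moderated test over all 11786 genes, as did 27.0% of all genes, with 16.2% higher and 10.8% lower in KO. Since the members were picked with this contrast in view, nothing is read from these counts. The median difference of all tested genes was 0.07 on the log2 scale. When libraries were scaled to an equal sum the count of changed genes was 3239, with 1616 higher and 1623 lower, against 1906 higher and 1278 lower as deposited. Without KO replicate 1 or 2 the counts of changed genes were 1902 and 1453, and without WT replicate 1 or 2 they were 1402 and 1741.

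**Figure D2:**
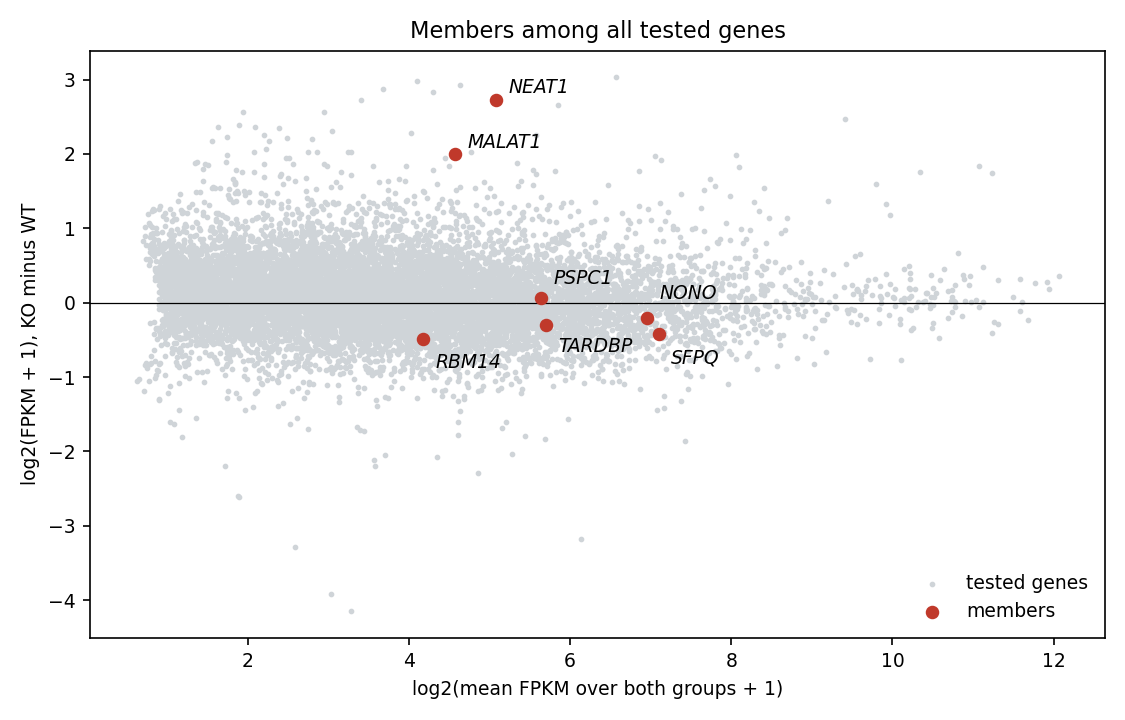
Log2 difference (KO minus WT) against mean level, log2(FPKM + 1), for 11786 tested genes (grey), with the 7 members in red. NEAT1 (2.73) and MALAT1 (1.99) lie at the upper edge, and the 5 protein genes lie between -0.49 and 0.06, within the cloud.

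The order of levels differed between the groups. In KO the order ran SFPQ, NONO, NEAT1, PSPC1, TARDBP, MALAT1 and RBM14, and in WT it ran SFPQ, NONO, TARDBP, PSPC1, RBM14, MALAT1 and NEAT1. In KO the values of SFPQ and NONO overlapped, while NEAT1 lay above PSPC1, PSPC1 above TARDBP and TARDBP above MALAT1 without overlap. In WT, NEAT1 lay inside the range of MALAT1, and the other neighbours in the order did not overlap. Among 438 tested genes of RefSeq biotype lncRNA, a class chosen after the values were seen, NEAT1 was 12th by mean level in KO and 74th in WT. MALAT1 was 15th in KO and 68th in WT. By difference NEAT1 ranked 1st and MALAT1 2nd of these. Of the 438, 67 rose and 33 fell (limma, adjusted p under 0.05), beside 16.2% higher and 10.8% lower over all genes.

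**Figure D3:**
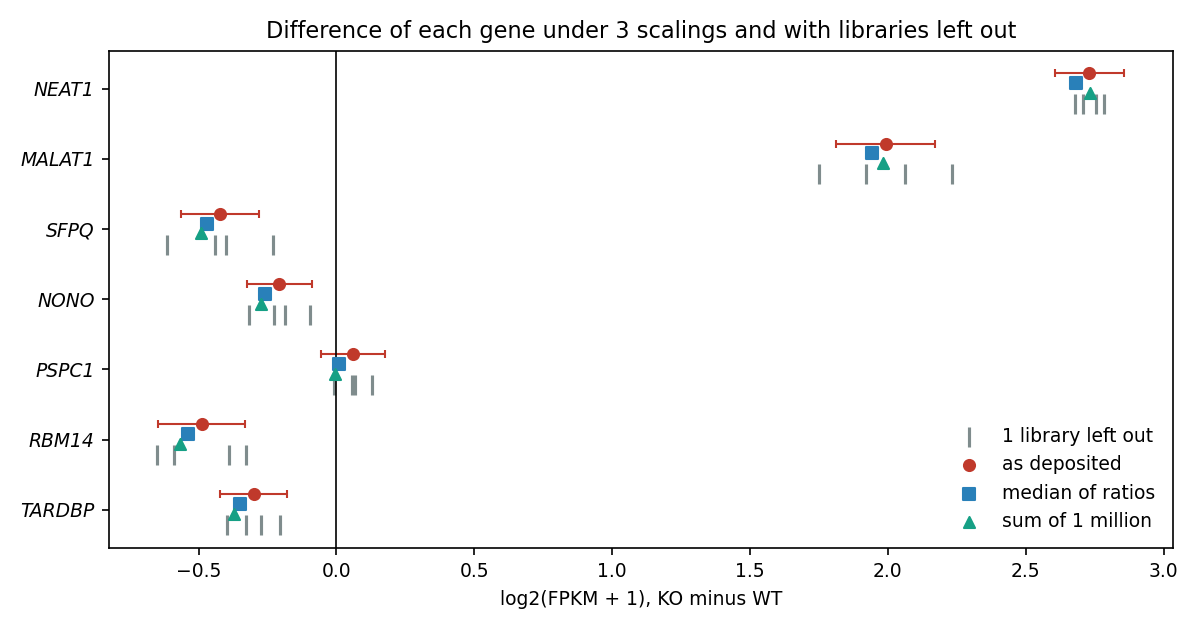
Log2 difference of each member (KO minus WT) as deposited (circle, bar of 1 SE), after 2 other scalings (square, triangle) and with each library left out (ticks). NEAT1 ranges over 2.68 to 2.78 and MALAT1 over 1.75 to 2.23 with a library left out, SFPQ, NONO, RBM14 and TARDBP stay below 0, and PSPC1 falls on both sides of 0.

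Leaving out a library moved SFPQ, NONO and PSPC1 by over 1.5 times. Without the first KO library the difference of SFPQ was -0.61 and that of NONO -0.32, and without the second they were -0.23 and -0.10. So the lower SFPQ and NONO values in KO rest largely on the second KO library. PSPC1 differed by -0.009 without the first KO library and by 0.13 without the second. NEAT1 and MALAT1 kept their size whichever library was left out.

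Genes of other proteins tied to paraspeckle assembly had lower RNA in KO where they passed the test. Of 6 tested, 3 fell and 0 rose (limma, adjusted p under 0.05; 3 and 0 at an unadjusted p under 0.05), beside 10.8% lower and 16.2% higher over all genes. Their median was -0.29 against 0.07 for all genes. The shares over all genes include many genes with low values. Where the mean had to reach 5 FPKM, 3 of 6 fell, beside 1137 lower and 1321 higher of 8249 genes, whose median was 0.03. DAZAP1, an RNA-binding protein of the long RNA's shell, was at 67.6 and 61.9 FPKM in KO, against 111 and 113 FPKM in WT. It fell by 0.78 ± 0.11 (SE, log2; limma adjusted p 0.00403). SMARCA4, the ATPase of the SWI/SNF chromatin remodeller, was at 26.7 and 23.1 FPKM in KO and at 42.6 and 48.6 in WT, and fell by 0.85 (adjusted p 0.00594). HNRNPK, which favours the long NEAT1 RNA by blocking polyadenylation of the short one, was at 270 and 274 FPKM in KO and at 346 and 351 in WT. It fell by 0.36 (adjusted p 0.0309), a call lost when any 1 library was left out, with adjusted p up to 0.157. MATR3 and HNRNPH3 differed by 0.28 and -0.09 and did not pass (adjusted p 0.254 and 0.682).

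Of 32 further paraspeckle proteins, 29 were tested and CELF6, RUNX3 and ZC3H6 were too low. Of the 29, 8 fell and 3 rose, or 37.9% changed against 27.0% of all genes (16.2% higher, 10.8% lower), with a median of -0.19. With a mean of at least 5 FPKM, 8 of 28 fell and 3 rose, beside 1137 lower and 1321 higher of 8249 genes. HNRNPM, a splicing factor, was at 180 and 172 FPKM in KO and at 285 and 267 in WT, and fell by 0.65 (limma adjusted p 0.00566). AKAP8L, a nuclear anchoring protein, fell by 0.88 (adjusted p 0.00496), and AHDC1 fell by 0.99 (0.00558). TAF15 and EWSR1, RNA-binding proteins picked after their values were seen, fell by 0.55 each (0.0101 and 0.0162). RBM3, an RNA-binding protein induced by cold, was at 331 and 363 FPKM in KO and at 230 and 249 in WT, and rose by 0.53 (0.0116). PCED1A rose by 1.03 (0.00594) and SMARCA2, the alternative ATPase to SMARCA4, rose by 0.77 (0.00978). Without the first WT library 4 of these proteins changed, and 6 without the second WT or the second KO library. The calls of RBM3, SMARCA2, TAF15 and EWSR1 were among those lost.

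Among genes of nuclear speckle proteins, which share their body with MALAT1, those that passed changed in 1 direction. Of 23 tested, 6 fell and 0 rose (limma; 7 and 0 at an unadjusted p under 0.05), with a median of -0.21. The share changed, 26.1%, is close to the 27.0% of all genes, and as a count is no result about this list. All of these changes were falls, against 10.8% lower and 16.2% higher over all genes, which include many with low values. Where the mean had to reach 5 FPKM, 6 of 22 fell, beside 1137 lower and 1321 higher of 8249 genes, whose median was 0.03. SRSF4, an SR splicing factor, was at 26.8 and 23.7 FPKM in KO and at 40.3 and 42.4 in WT, and fell by 0.69 (adjusted p 0.00861). ACIN1 and RNPS1, which join the exon junction complex, fell by 0.54 (0.0148) and 0.49 (0.0170). Without the second KO library or the first WT library 1 of the 23 changed, and without the second WT library 2. ACIN1 and RNPS1 did not pass in any of these.

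Among proteins of other nuclear bodies, 4 of 10 fell and 0 rose (limma; 4 and 3 at an unadjusted p under 0.05), with a median of -0.01. Over all genes 10.8% were lower and 16.2% higher. With a mean of at least 5 FPKM, 4 of 9 fell and 0 rose, beside 1137 lower and 1321 higher of 8249 genes. NOLC1, a chaperone that shuttles between the nucleolus and Cajal bodies, was at 77.8 and 86.2 FPKM in KO and at 139 and 120 in WT, and fell by 0.65 (limma adjusted p 0.0100). DAXX of PML bodies fell by 0.52 (0.0141) and the nucleolar methyltransferase FBL by 0.39 (0.0252), as did NCL, nucleolin, which was named after its values were seen (0.44, adjusted p 0.0292). Without the first WT library 1 of the 10 changed, a different gene that rose, and 2 without the first KO or the second WT library.

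**Figure D4:**
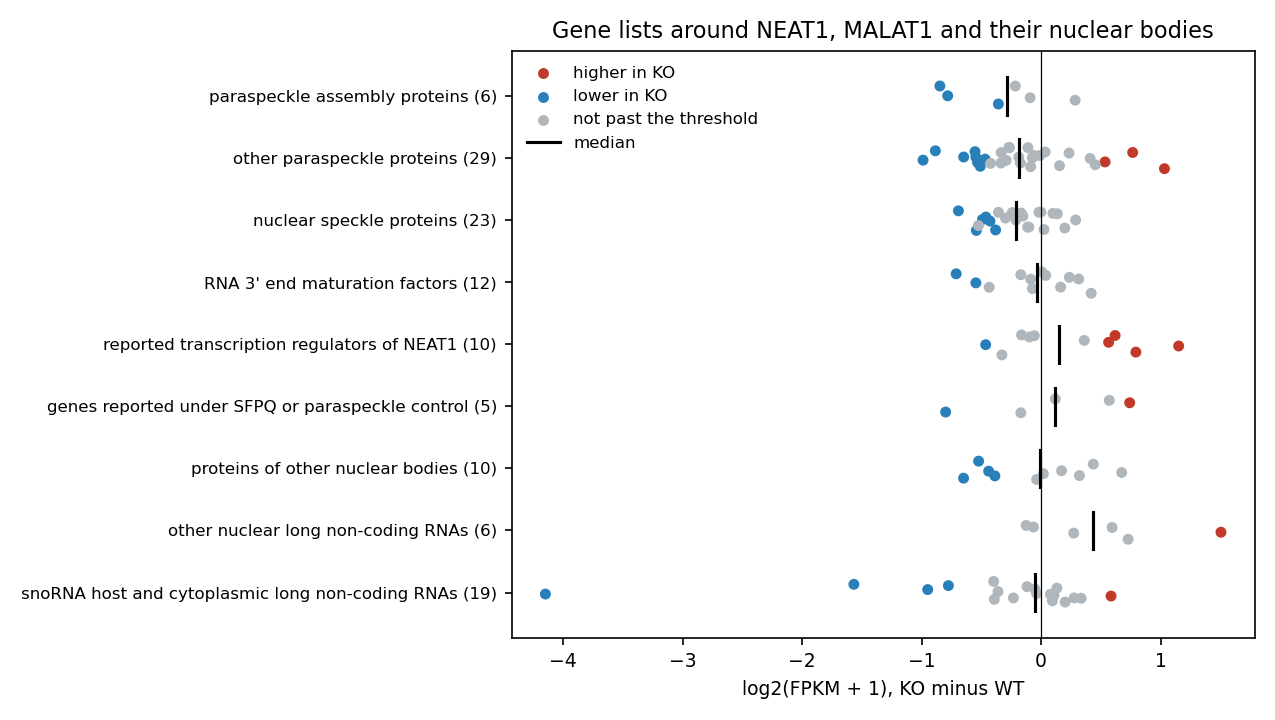
Log2 difference (KO minus WT) of each tested member of 9 gene lists, coloured by the limma call at an adjusted p of 0.05, with black bars for list medians and the number tested in brackets. The medians of the protein lists lie between -0.29 and 0.15.

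RNase P and ELAC2, the RNase Z, cut a tRNA-like tail from the end of the long NEAT1 RNA and of MALAT1, and METTL16 binds the triple helix of MALAT1. Of 12 such factors 2 fell and 0 rose (limma; 3 and 2 at an unadjusted p under 0.05), with a median of -0.03. Over all genes 10.8% were lower and 16.2% higher. With a mean of at least 5 FPKM, 3 of 12 fell and 0 rose, beside 1137 lower and 1321 higher of 8249 genes. ELAC2 was at 47.6 and 50.1 FPKM in KO, against 80.3 and 80.7 FPKM in WT, and fell by 0.71 (adjusted p 0.00534). POP1, a subunit of RNase P, fell by 0.55 (adjusted p 0.0334), a call lost in the fit with replicate number as a block and without the first KO, the second KO or the first WT library, with adjusted p up to 0.159.

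Transcription factors reported to act on NEAT1 changed in both directions. Of 10 tested, 4 rose and 1 fell, beside 16.2% higher and 10.8% lower over all genes, with a median of 0.15. EPAS1, the hypoxia factor HIF-2α, was at 11.8 and 5.09 FPKM in KO and at 2.55 and 3.46 in WT, and rose by 1.15 (limma adjusted p 0.0340). The first KO library held most of this rise, and without it the difference was 0.61 and did not pass. The call was also lost when either WT library was left out. HIF1A was at 76.0 and 64.0 FPKM in KO and at 51.3 and 39.6 in WT, a rise of 0.62 (0.0254). ATF2, a stress-activated factor, rose by 0.79 (0.0123). BRCA1, named after its values were seen, rose by 0.56 (0.0462) but did not pass under either other scaling or without any 1 library. HSF1, the heat shock factor, was at 71.6 and 74.6 FPKM in KO and at 100.01 and 102.39 in WT, and fell by 0.46 (0.0185). HIF1A did not pass without the first KO or the second WT library, ATF2 if the second library of either group was left out, and HSF1 without the first KO or any WT library. Without the first or second KO library 1 and 3 of the 10 changed. Without the first or second WT library 2 and 0 changed (5 and 5 at an unadjusted p under 0.05).

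The RefSeq promoter table holds 5 of the 7 members, MALAT1 with 2 starts. NEAT1 and SFPQ have no entry in it, so their promoters were not searched. The window of its second start is shown, 250 bases before to 50 after, at chr11:65498795-65499094, plus strand (GRCh38.p14). The capitals mark a TATA box, TATAAA, and a match on the minus strand to GCGTG, a core of the hypoxia response element.
MALAT1 promoter: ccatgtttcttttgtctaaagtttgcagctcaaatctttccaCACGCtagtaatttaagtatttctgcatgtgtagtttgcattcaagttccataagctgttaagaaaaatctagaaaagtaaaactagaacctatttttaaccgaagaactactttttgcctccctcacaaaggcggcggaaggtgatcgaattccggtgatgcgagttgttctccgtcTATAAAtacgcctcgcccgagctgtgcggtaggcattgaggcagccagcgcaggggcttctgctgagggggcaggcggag
On either strand, TATAAA occurs in 11.5% of 35116 promoters and GCGTG in 36.5%. The other MALAT1 start holds GCGTG at 2 places and no TATAAA, and GCGTG also occurs at 2 places in the window of PSPC1 and at 1 in that of NONO. The other hypoxia core, ACGTG, occurs in 21.4% of promoters, and among the 5 members searched only in the window of TARDBP. The heat shock motif TTCNNGAA (7.74% of promoters) and the cyclic AMP element TGACGTCA (1.85%) were in none of the windows of these 5 members. For NEAT1 itself no motif was looked for. These are matches of letters, and their absence says nothing of the factor.

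Genes reported to be held or controlled by SFPQ and paraspeckles gave 1 rise and 1 fall among 5 tested. Over all genes 16.2% were higher and 10.8% lower. IFIH1, the RNA sensor MDA5, was at 1.84 and 1.54 FPKM in KO and at 0.51 and 0.71 in WT, and rose by 0.74 (limma adjusted p 0.0120). SLC7A2, whose mouse transcript gives the classic nuclear-retained paraspeckle RNA, was at 2.99 and 2.83 FPKM in KO and at 7.33 and 4.55 in WT, and fell by 0.80 (0.0272). Neither call held without the first KO or the first WT library, and SLC7A2 also failed without the second KO library, so 0 to 3 of the 5 passed (2 at an unadjusted p under 0.05 where 0 passed). CXCL8, the interleukin-8 gene that SFPQ represses until NEAT1 draws it away, was at 4.89 and 8.13 FPKM in KO and at 2.45 and 6.07 in WT. Its groups overlapped (difference 0.57, adjusted p 0.242).

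Of 14 other nuclear non-coding RNAs listed, 10 had values and 6 were tested. They had a median of 0.43, and 1 rose and 0 fell (limma; 3 and 0 at an unadjusted p under 0.05). Over all genes the shares were 16.2% higher and 10.8% lower. The 16.7% that rose here is close to the share over all genes and is no result about this list. For the 3 with a mean of at least 5 FPKM the median was -0.06. RN7SK, the 7SK RNA that holds P-TEFb inactive, was at 3.27 and 5.63 FPKM in KO and at 0.88 and 0.87 in WT. It rose by 1.5 (limma adjusted p 0.00409), with both WT values below the 1 FPKM used in the filter on low values. TUG1, at 14.1 and 16.7 FPKM in KO and 12.3 and 7.87 in WT, and RMRP, at 2.66 and 4.10 in KO and 1.12 and 2.21 in WT, lay higher in KO without passing (0.0684 and 0.0591). When either WT library was left out, 2 of the 6 passed. RPPH1, the RNA of RNase P, was at 14.7 and 13.2 FPKM in KO and 15.9 and 14.7 in WT. Of 19 tested mostly cytoplasmic or snoRNA host RNAs, 4 fell and 1 rose, with a median of -0.05. That is 26.3% changed, close to the 27.0% of all genes, and is no result about this list. UCA1 was at 0.02 and 0.05 FPKM in KO and at 17.6 and 17.1 in WT, SNHG7 fell by 1.57 (adjusted p 0.000553) and SNHG15 by 0.95 (0.00401), and NORAD rose by 0.58 (0.00998), a call lost when either WT library was left out. GAS5, named after its values were seen, was the remaining fall (0.78, 0.00761).

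RN7SK, RMRP and RPPH1 lack a poly(A) tail, like MALAT1 and the long NEAT1 RNA, and so do most messages of clustered histone genes. The labels name the library kit without saying whether poly(A) RNA was selected. Of 48 clustered histone genes in the table, 15 were tested, with a median of -0.16. Of these 5 fell and 1 rose, beside 10.8% lower and 16.2% higher over all genes. All 48 summed to 152.4 and 154.4 FPKM in KO and to 150.8 and 223.3 in WT. A few genes, with differences in opposite directions, held most of the sum in each library, and some entries carried identical values. So the sum does not measure the recovery of RNAs without a tail. How the recovery of RNAs without a tail bears on NEAT1 and MALAT1 was not tested.

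Genes around the pair were also compared, since NEAT1 and MALAT1 lie side by side. Of 40 tested genes that start within 500 kb of either, 7 rose and 2 fell (limma, adjusted p under 0.05), with a median of 0.04. That is close to the share over all genes, 16.2% higher and 10.8% lower, and is no result about the surroundings of the pair. No tested gene lies between NEAT1 and MALAT1. FRMD8, 54.7 kb before the start of NEAT1, was at 24.97 and 21.29 FPKM in KO and at 20.6 and 25.2 in WT, and did not pass (adjusted p 0.954). In a window of 250 kb around the start of NEAT1, chosen after the values were seen, 0 of 15 genes rose and 1 fell (limma; 0 and 2 at an unadjusted p under 0.05). That fall was DPF2, 88.9 kb before NEAT1, by 0.43 (0.0474), and it was lost when any 1 library was left out.

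Farther away, TM7SF2, a sterol reductase gene 310.9 kb before NEAT1, was at 7.52 and 6.64 FPKM in KO and at 1.02 and 2.03 in WT, and rose by 1.70 (limma adjusted p 0.00260). CTSW, 457.1 kb after the start of NEAT1, was at 1.5 and 1.52 FPKM in KO and at 0.03 and 0.09 in WT, and rose by 1.24 (0.00182). Its neighbour FIBP was at 118.5 and 104.79 FPKM in KO and at 54.8 and 61.2 in WT, and rose by 0.93 (0.00320). SART1, which recruits the tri-snRNP to the spliceosome, fell by 0.76 (0.00773).

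**Figure D5:**
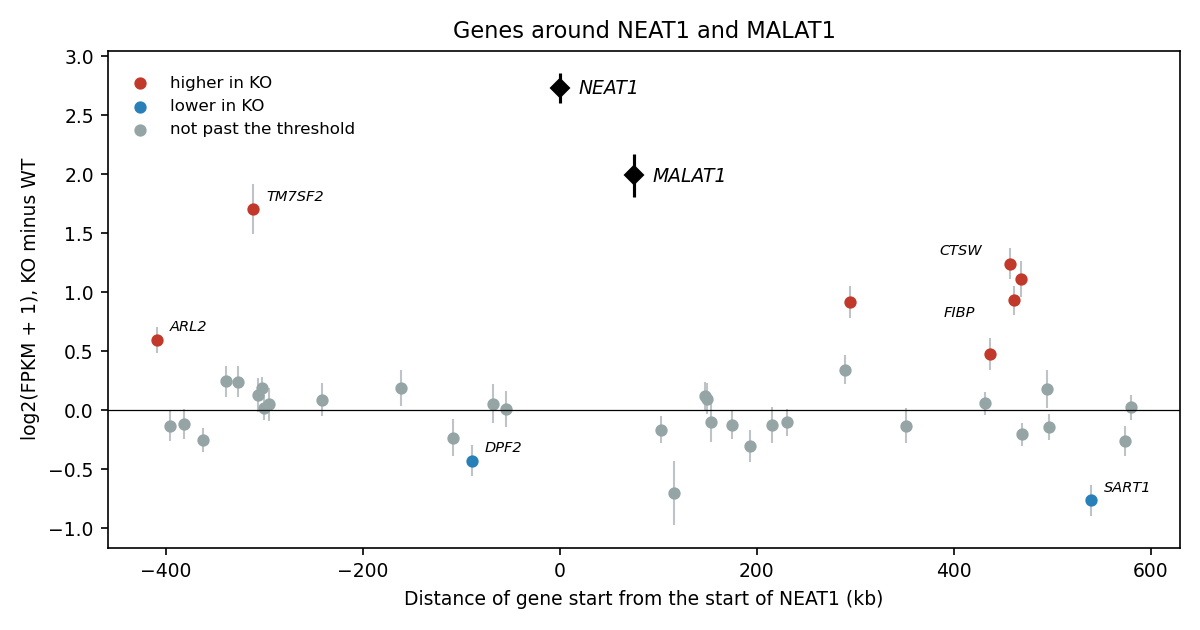
Log2 difference (KO minus WT, bars of 1 SE) of 40 tested genes around NEAT1 and MALAT1 (diamonds), by distance of the gene start from that of NEAT1 in kb. Within 250 kb of the start of NEAT1, a window chosen after the values were seen, the differences run from -0.70 to 0.19. The genes marked higher lie at least 294.9 kb away on either side.

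The genes whose values over the 4 libraries were most like those of NEAT1 were picked by Euclidean distance between centred log2(FPKM + 1) values, among 8151 candidates whose mean over the libraries reached 5 FPKM. They were SAA1 (distance 0.229), RFPL4AL1 (0.301), RFPL4A (0.350), CLU (0.476) and AKR1C3 (0.557). RFPL4A and RFPL4AL1 are close copies of each other, and SAA1 and AKR1C3 have close copies too. Reads may be shared between such copies, which cannot be checked here, so their values are uncertain. CLU, a secreted chaperone, was at 28.4 and 23.6 FPKM in KO and at 4.11 and 4.95 in WT. For MALAT1 they were BIRC3 (0.285), LY96 (0.304), SEMA3C (0.335), EVI2B (0.373) and SEL1L3 (0.413). BIRC3, an inhibitor of apoptosis, was at 9.77 and 11.1 FPKM in KO and at 1.67 and 1.31 in WT. NEAT1 and MALAT1 were 0.845 apart, which made MALAT1 the 16th nearest gene to NEAT1 and NEAT1 the 80th nearest to MALAT1. With 4 libraries these distances reflect mainly the difference between the groups.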

How the data were processed

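The authors deposited 1 FPKM value per gene and library, with 2 decimals, per the file headers. The submitters' processing notes name HISAT, StringTie, Cufflinks and GATK with the build hg38, without versions or roles. The step that made the FPKM values, its filters and gene lengths, and the read depth, are not given here by any label or header. Per the labels' protocols, RNA was extracted with Trizol and a TruSeq RNA kit was used.

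Values were analysed as log2(FPKM + 1), without further scaling, which understates changes of low genes. Genes reaching 1 FPKM in 2 or more libraries, 11786 in all, entered limma 3.58.1 (R 4.3.3) with its trend option. P-values were adjusted by the Benjamini-Hochberg method over all of them, with a threshold of 0.05. Python 3.11.15 and pandas 2.3.3 were also used. The fit was also run on simulated data as a check of the code, and no call reported here rests on it. With 2 libraries a group, an exact permutation of single values cannot reach significance, so none is given.

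The members and gene lists were chosen with earlier results of these data known. Named genes are all members, up to 3 rises and 3 falls with the smallest p per list and among genes near NEAT1, and the 5 nearest profiles of NEAT1 and MALAT1. Other names are said to be picked after their values were seen. Single values of some listed genes are not reported here. Gene positions come from GENCODE 29 and RefSeq on GRCh38, with gene identifiers as keys. Promoters and microRNAs come from RefSeq, GRCh38.p14. Alternatives were another pseudocount (0.1), no filter, a mean of at least 5 FPKM, 2 other scalings, limma without trend, a replicate block and leaving out each library.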

Additional observations from a re-analysis of the deposited data

How the results depend on the processing

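With no filter on low values limma called 525 genes (19833 tested) against 3184. It then called 1 assembly protein, 2 further paraspeckle proteins, 1 factor of 3′ end maturation, 3 host or cytoplasmic RNAs and 2 genes near NEAT1. It called 0 nuclear speckle proteins (8 at an unadjusted p under 0.05), 0 NEAT1 regulators (4), 0 proteins of other nuclear bodies (5), 0 genes under SFPQ control (2) and 0 other nuclear RNAs (1). Where the mean had to reach 5 FPKM it called 0 of 2 genes under SFPQ control (0 at an unadjusted p under 0.05) and 0 of 3 nuclear RNAs (1). Without a trend 2 proteins of other bodies passed. With a pseudocount of 0.1 the difference of NEAT1 was 2.86.

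Leaving out each library gave 1402 to 1902 changed genes, 2 to 2 assembly proteins, 4 to 11 further paraspeckle proteins, 1 to 5 speckle proteins and 1 to 2 factors of 3′ end maturation. It gave 0 to 3 NEAT1 regulators, 0 to 3 genes under SFPQ control, 1 to 4 proteins of other bodies, 1 to 2 nuclear RNAs, 4 to 6 host or cytoplasmic RNAs and 7 to 7 genes near NEAT1. The difference was 2.68 to 2.78 for NEAT1 and 1.75 to 2.23 for MALAT1. An arm left with 1 library was assumed to vary like the other.

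The replicate numbers are not stated to pair the libraries, and deviations of same-numbered libraries correlated at -0.177 across genes. The replicate block gave 2864 changed genes, 1 factor of 3′ end maturation and 2 nuclear RNAs. A crossed block, chosen after seeing the data, gave 4170, with 4 such factors, 2 nuclear RNAs and 8 host or cytoplasmic RNAs. Of the members, 2 passed as deposited, beside 27.0% of all genes, and 4 (2 higher, 2 lower) passed under either other scaling. The members were picked with this contrast in view, so nothing is read from these counts. Of 48 named changed genes, 16 kept their call in every alternative run on them, 11 lost it only without the filter, 21 lost it without some library, and none reversed. The cause was not tested. Depth is unknown, so the reads behind low values cannot be judged.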
